A study of Mus musculus with 9 samples.

Results

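The polyamine genes described here are 10 genes, of 22851 in the count matrix, that make, convert and break down spermidine and spermine or set the activity of the first enzyme of the pathway. They were taken by name, from the mouse symbols matched to the Ensembl identifiers of the matrix, by a rule that uses names and roles and no level or fold change. The synthesis enzymes were Odc1, Amd1, Srm and Sms, the breakdown enzymes were Sat1, Smox and Paox, and the regulators of ornithine decarboxylase were Oaz1, Oaz2 and Azin1. All 10 genes were present in the matrix, had counts in every library and entered every test.

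Polyamines are small positively charged molecules that bind nucleic acids and ion channels, and spermine is the longest of the main ones in mammals. Ornithine decarboxylase (Odc1) makes putrescine, spermidine synthase (Srm) turns putrescine into spermidine and spermine synthase (Sms) turns spermidine into spermine, while S-adenosylmethionine decarboxylase (Amd1) supplies the aminopropyl groups for both last steps. Spermidine/spermine N1-acetyltransferase (Sat1) marks polyamines for export or for oxidation by polyamine oxidase (Paox), and spermine oxidase (Smox) turns spermine back into spermidine with release of hydrogen peroxide. Antizymes (Oaz1, Oaz2) bind ornithine decarboxylase and send it to the proteasome, antizyme inhibitor (Azin1) releases it from them, and much of the control of this pathway is known to act on translation and protein stability, which RNA levels do not show.

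RNA of the heart of male C57BL/6J mice, aged 6 to 8 weeks at the start, was sequenced in 3 groups of 3 libraries. CK mice received citrate buffer. DCM mice, the diabetic cardiomyopathy model, received streptozotocin, which destroys the insulin-producing cells of the pancreas, in 1 intraperitoneal dose of 180 mg/kg, with hearts taken 12 weeks later. SPM mice received the same streptozotocin dose and, in addition, injections of spermine at 1 mg/kg, daily over the 2 weeks that preceded streptozotocin and on alternate days over the following 12 weeks. A group with spermine and no streptozotocin is not part of the comparisons, so SPM and CK differ in both agents. The sources give both 3 mice a group and pools of 6 hearts as the origin of the RNA, so the p-values below measure the spread between libraries, whatever each library holds.

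Total counts lay between 29901300 and 39718680 a library, so that even Paox, the least abundant member, had 162 to 254 counts. The tissue label names the heart and the extraction protocol names retinas. The 6 cardiomyocyte genes found in the matrix, of 8 listed, summed to 37930 to 54140 CPM (counts scaled to equal library totals). The 7 retina genes found, of 8 listed, summed to at most 1.75 CPM and none reached 1 CPM in all 9 libraries. Marker sums use the library totals alone, whereas CPM of the members and pathway genes also use TMM factors. Mitochondrial genes took a share of the counts of 13.7% to 16.2% in CK, 15.5% to 18.9% in DCM and, in SPM, 21.01% to 21.09%. SPM replicate 2 stood apart from the other libraries. For 68.4% of 12613 genes its level fell inside the interval set by the other two SPM libraries (14.7% to 40.7% for each of the other 8 libraries against the rest of its group), a mixture of 45.3% of replicate 1 and the rest of replicate 3 left 0.879 times the counting noise (2.61 for the next best of 252 combinations), and of 2656 genes without a count in replicates 1 and 3 it had a count for 1.13% (15.6% to 35.0% for the others). Its independence is in doubt. The edgeR calls of the SPM comparisons are given with and without it. Levels, ratios, overlaps, correlations and the other alternatives include it unless stated. Log2 fold changes also moved with the GC content of the gene, with a Spearman rho of -0.50 in SPM compared to DCM, -0.37 in SPM compared to CK and 0.06 in DCM compared to CK across 14392 to 14564 genes, which are not independent replicates.

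The sequences of 3 sites show where this pathway senses its product and where the gene of its first enzyme starts. The antizyme messages carry a stop codon within the reading frame, and full-length antizyme is made only when the ribosome skips 1 base there, a step that polyamines are known to promote. The site is coding sequence of the GENCODE M21 annotation on GRCm38. It lies at chr10:80828262-80828328 on the plus strand for Oaz1 and at chr9:65686239-65686305 on the plus strand for Oaz2, and is shown 5′ to 3′ with TCCTGAT, the codon before the stop, the stop codon TGA and the next base, in capitals.
Oaz1: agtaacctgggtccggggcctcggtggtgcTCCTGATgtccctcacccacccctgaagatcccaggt
Oaz2: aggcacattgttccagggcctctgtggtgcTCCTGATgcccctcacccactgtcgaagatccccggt
The capitals are the same in both genes, and 54 of the 67 bases are identical. The annotation leaves out 1 base in the coding exons of 3 Oaz1 and 2 Oaz2 transcripts, the T of this TGA in both genes (position 80828295 of chromosome 10 and 65686272 of chromosome 9).

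The stretch upstream of Odc1 is shown because Odc1 was the one member that passed the test in DCM compared to CK, and because Odc1 is a textbook target of MYC, which binds the E-box CACGTG. The 171 bases at chr12:17544623-17544793 (plus strand, GRCm38.p6) end just before the gene's first base in GENCODE M21. They are the first 171 of the 250 bases before the RefSeq start (chr12:17544623-17544872), so the bases nearest that start are not shown. The capitals mark the GC box GGGCGG on either strand.
Odc1: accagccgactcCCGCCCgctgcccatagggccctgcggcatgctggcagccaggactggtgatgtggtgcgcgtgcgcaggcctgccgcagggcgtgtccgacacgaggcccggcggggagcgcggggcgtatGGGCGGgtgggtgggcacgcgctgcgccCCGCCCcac
This stretch held 3 GC boxes, which do not overlap, and the full 250 bases held 4. In the first 171 of the 250 bases before the RefSeq start of 32851 mouse promoters, 19.6% had at least 1 GC box and 2.78% at least 3. These bases were placed by the RefSeq start alone, so in other genes they need not end at an annotated start. In the full 250 bases, 32.7% of the promoters had at least 1 GC box. The letters CACGTG and TATAAA, searched on both strands, are not in this window or in the full 250 bases. In the same first 171 bases they were found in 3.41% and 8.09% of the promoters. Bases after the RefSeq start, introns included, were not searched, so an E-box elsewhere in Odc1 was not looked for. Of the other members, Amd1, Sms, Sat1, Smox, Paox, Oaz1 and Oaz2 also had a promoter entry, and Srm and Azin1 are named only. GC boxes were thus not particular to Odc1. In the 250 bases they numbered 6 for Smox, 3 for Oaz2, 2 for Sat1, 1 for Amd1 and 0 for Oaz1. Depending on the entry they numbered 0 or 4 for Sms and 1 or 3 for Paox. The Sms entry with 0 GC boxes held 1 E-box.

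The antizymes were the most abundant members of the pathway per length. Levels between genes are given here in FPKM, the counts divided by the gene's length and by the library's total, scaled by the usual constants, as deposited. Oaz1 had 228 ± 16.5 FPKM (mean ± SD over all 9 libraries), Oaz2 97.4 ± 9.48 and Odc1, the enzyme that both restrain, 52.1 ± 5.91. Sat1 followed with 30.5 ± 3.14 FPKM and Amd1 with 23.3 ± 2.78. In each of the 3 groups these 5 genes held the first 5 places in this order, and the libraries of each neighbouring pair were separate.
The middle of the order held 4 genes that changed places between the groups. In CK it read Smox (16.6 FPKM), Srm (11.8), Azin1 (10.7) and Sms (9.54). In SPM it read Azin1 (15.0 FPKM), Smox (11.2), Sms (10.7) and Srm (6.95). In DCM the libraries of each neighbouring pair overlapped from Smox (12.9 FPKM) through Azin1 (12.4) and Srm (10.47) to Sms (9.95), so their order there is not settled. Amd1 and Smox overlapped in CK, as did Azin1 and Sms, and Smox and Sms overlapped in SPM. The place of Sms leaves out the counts of its near-identical copy Sms-ps, described below. Paox, the oxidase of acetylated polyamines, was last in every group with 1.36 ± 0.205 FPKM over all 9 libraries.

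**Figure D1:**
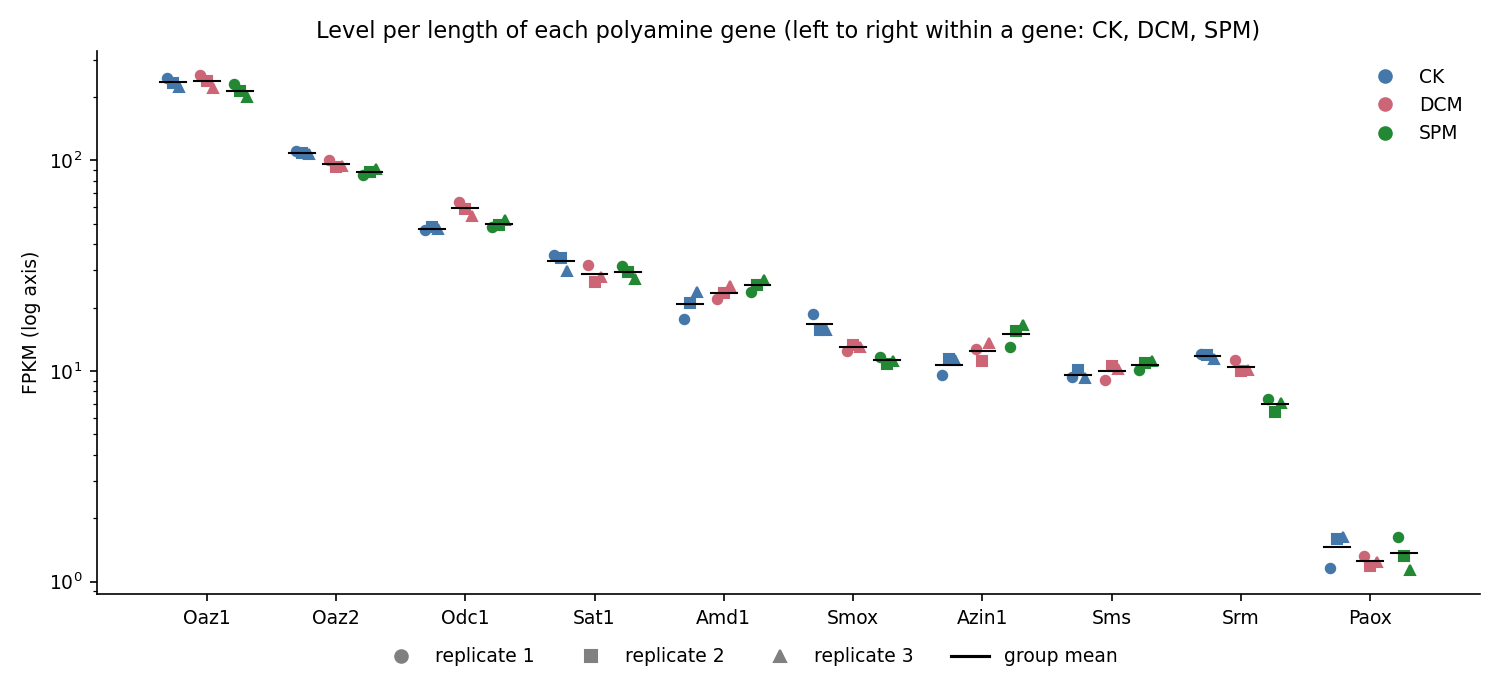
FPKM on a log axis for each polyamine gene, ordered by the mean over all libraries, with CK, DCM and SPM from left to right within a gene, 1 point per library and a line at each group mean. Oaz1 (228 FPKM) and Oaz2 (97.4 FPKM) sit above Odc1 (52.1 FPKM), and Srm moves from 11.8 FPKM in CK to 6.95 FPKM in SPM.

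The first comparison, DCM with CK, asks how the pathway stood in the diabetic heart. Odc1 was the one member that rose. By edgeR's quasi-likelihood test with a Benjamini-Hochberg adjusted p below 0.05 over 14402 genes, 1 of 10 members was higher (5.28% of all genes tested) and 0 of 10 were lower (5.11% of all genes). By DESeq2 the count of lower members was also 0 (823 of 14802 genes). At an unadjusted p below 0.05 by edgeR it was 1, Smox, with 3 members higher, beside 3545 of 14402 genes in either direction. In all, 3 members, each higher, passed with an offset that removes each library's trend on GC content (the GC offset), beside 1878 of 14392 genes. With no low-count filter 4 members passed, of which Smox was lower, beside 2085 of 22105 genes. With a fold change of at least 1.5 as well, 0 of 10 members passed (4.34% of all genes). Libraries of the groups did not overlap for 4 of 10 members (29.3% of all genes). The median log2 fold change of the members was 0.01, beside -0.00 over all genes.

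The second comparison, SPM with DCM, asks how the diabetic heart with spermine differed from that without. Odc1, the first enzyme of the pathway, and Srm, spermidine synthase, fell, and 0 members rose. Of 10 members, 0 were higher (8.87% of 14493 genes tested) and 2 were lower (7.76% of all genes). The count of higher members was 1 by DESeq2, Azin1 (1390 of 13843 genes). At an unadjusted p below 0.05 by edgeR it was also 1, Azin1, with 3 members lower, beside 5015 of 14493 genes in either direction. With the fold-change limit 0 of 10 passed (3.59% of all genes), and 4 of 10 did not overlap (39.3% of all genes). Without SPM replicate 2, 0 of 10 members passed edgeR's test in either direction (0.486% of 14828 genes tested). At an unadjusted p below 0.05, 1 was higher (Azin1) and 2 were lower (Odc1 and Srm), beside 3266 of the 14828 genes in either direction.

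The third comparison, SPM with CK, had the most calls, with Azin1, Amd1 and Sms higher and Srm, Smox and Oaz2 lower. Of 10 members, 3 were higher (13.0% of 14574 genes tested) and 3 were lower (14.3% of all genes). Only Srm also had a fold change of at least 1.5 (9.21% of all genes), and 7 of 10 members did not overlap (46.3% of all genes). Without SPM replicate 2, Azin1, Smox and Srm passed, 3 of 10 members against 10.4% of 14897 genes tested. The comparisons share libraries in pairs, so their calls are not independent of each other.

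**Figure D2:**
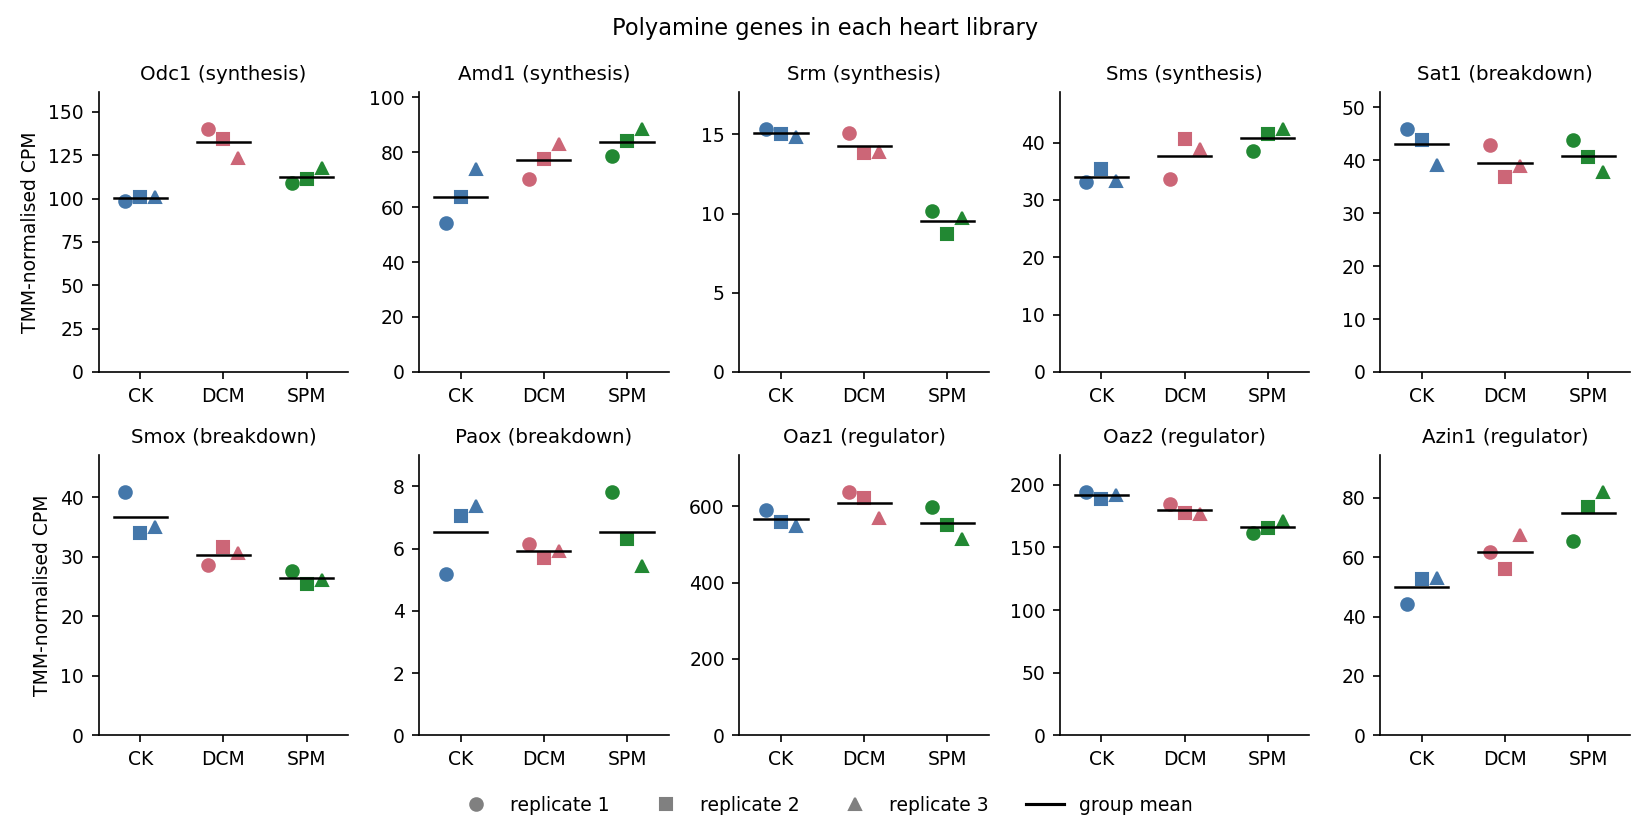
TMM-normalised CPM of each polyamine gene in each library, from 0, with 1 point per library, the shape giving the replicate number, and a line at the group mean. The DCM points of Odc1 lie between 124 and 140 CPM, above all CK points, the SPM points of Srm lie between 8.72 and 10.2 CPM, below all CK and DCM points, and Sat1, Paox and Oaz1 overlap between the groups.

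**Figure D3:**
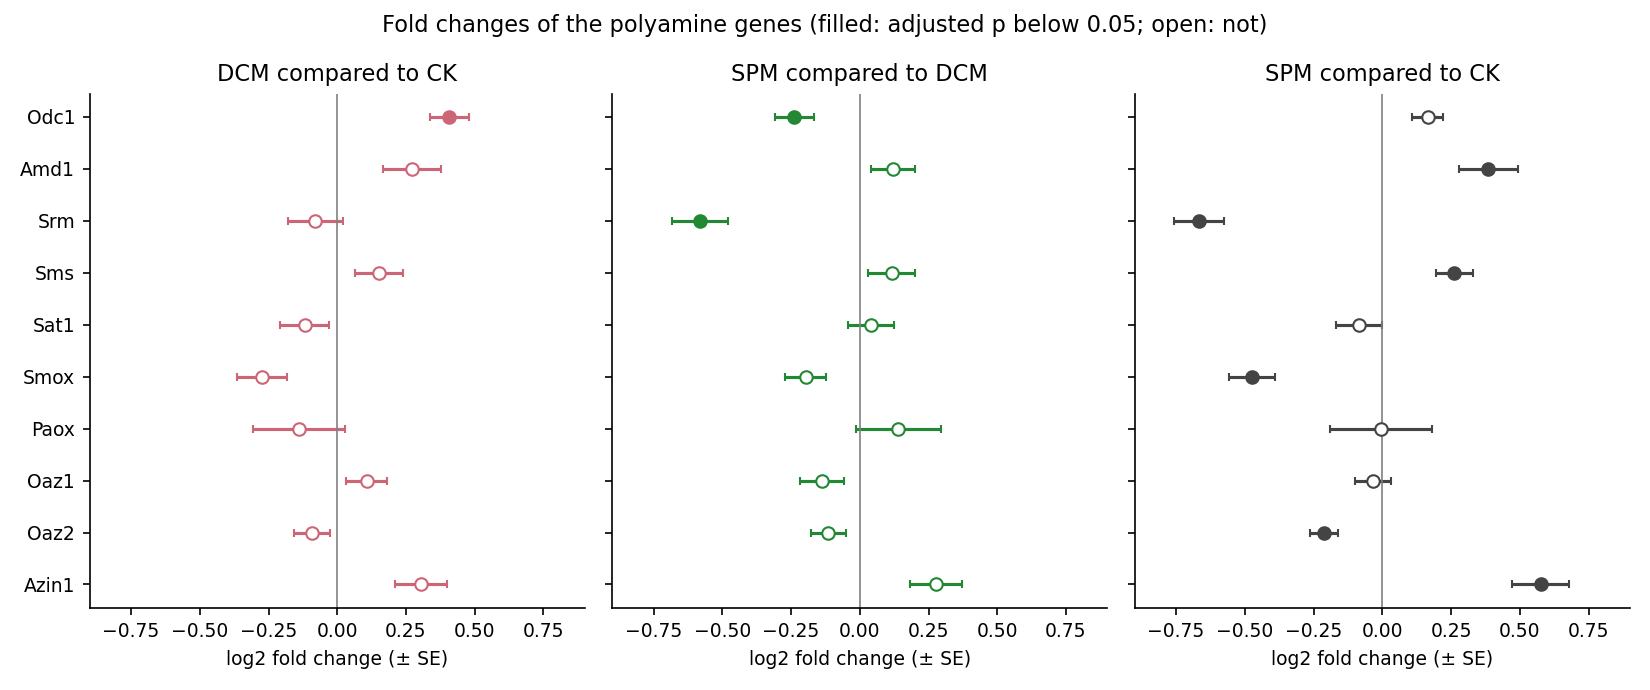
Log2 fold change with its SE for each polyamine gene in the 3 comparisons, filled where the edgeR adjusted p was below 0.05. Filled points are Odc1 in DCM compared to CK, Odc1 and Srm in SPM compared to DCM, and Amd1, Srm, Sms, Smox, Oaz2 and Azin1 in SPM compared to CK.

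Odc1 (ENSMUSG00000011179, chr12:17544794-17551505, plus strand), the enzyme that commits ornithine to polyamines, had 98.6, 101 and 101 CPM in CK replicates 1 to 3. It had 140, 134 and 124 CPM in DCM and, in SPM, 109, 111 and 118 CPM. Every DCM library was above every CK and every SPM library, and every SPM library was above every CK library. Odc1 rose in DCM compared to CK by a log2 fold change of 0.41 (SE 0.07, 1.33-fold, edgeR adjusted p = 3.40e-03), and it passed under 17 of 18 alternatives, all but the limit of 1.5-fold.
Odc1 fell in SPM compared to DCM by 0.24 on the log2 scale (SE 0.07, edgeR adjusted p = 0.0445). This call was lost without SPM replicate 2, where the log2 fold change was -0.23 (SE 0.10) and the edgeR adjusted p was 0.197, and it passed under 10 of 18 alternatives. In SPM compared to CK the log2 fold change was 0.16 (SE 0.06) with an edgeR adjusted p of 0.0595, which did not pass, and under an offset for GC content it was 0.25 with an edgeR adjusted p of 0.0205, which did.

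Amd1 (ENSMUSG00000075232, chr10:40287458-40302186, minus strand), which makes the aminopropyl donor, had 54.2, 63.6 and 73.7 CPM in CK, the widest relative spread of any synthesis gene within a group (15.3% coefficient of variation). It had 70.3, 77.6 and 83.0 CPM in DCM and, in SPM, 78.4, 84.1 and 88.6 CPM. The DCM libraries overlapped with both other groups, while all SPM libraries were above all CK libraries. Amd1 rose in SPM compared to CK by a log2 fold change of 0.39 (SE 0.11, edgeR adjusted p = 0.0303). Without SPM replicate 2 that edgeR adjusted p was 0.0936, and the call held under 10 of 18 alternatives. The log2 fold change was 0.27 (SE 0.11, edgeR adjusted p = 0.134) in DCM compared to CK and 0.12 (SE 0.08, edgeR adjusted p = 0.312) in SPM compared to DCM.

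Srm (ENSMUSG00000006442, chr4:148591503-148594993, plus strand), spermidine synthase, showed the largest fold change among the members. It had 15.4, 15.0 and 14.9 CPM in CK, 15.1, 13.8 and 13.9 CPM in DCM and, in SPM, 10.2, 8.72 and 9.70 CPM. CK and DCM overlapped, and all SPM libraries were below both. Srm fell in SPM compared to DCM by 0.58 on the log2 scale (SE 0.10, 0.668 times the DCM level, edgeR adjusted p = 0.0111). Without SPM replicate 2 the log2 fold change was -0.52 (SE 0.13, edgeR adjusted p = 0.0668), which did not pass. Srm fell in SPM compared to CK by 0.67 (SE 0.09, 0.630 times the CK level, edgeR adjusted p = 1.98e-03), and this call was kept without SPM replicate 2 (log2 fold change -0.60, SE 0.12, edgeR adjusted p = 0.0170) and under 18 of 18 alternatives. Between DCM and CK the log2 fold change of Srm was -0.08 (SE 0.10, edgeR adjusted p = 0.688).

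Sms (ENSMUSG00000071708, chrX:157443855-157492287, minus strand), spermine synthase, uses the same donor as Srm one step later. Its levels were 33.1, 35.5 and 33.3 CPM in CK, 33.6, 40.7 and 38.9 CPM in DCM and, in SPM, 38.6, 41.6 and 42.5 CPM. All SPM libraries were above all CK libraries, and DCM overlapped with both. Sms rose in SPM compared to CK by a log2 fold change of 0.26 (SE 0.07, edgeR adjusted p = 0.0226), and without SPM replicate 2 the edgeR adjusted p was 0.119. A processed copy, Sms-ps, is 100% identical over 1101 bases and carried 271 to 511 counts a library, in sum 32.04% of those of Sms. Reads that lie within those bases cannot be told apart. With the copies of each member added to its counts, Sms rose by 0.24 (edgeR adjusted p = 0.0332) and the same members passed in all 3 comparisons.

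Among the breakdown enzymes, Smox was lower in SPM than in CK and the other two did not pass in any comparison. Smox (ENSMUSG00000027333, chr2:131491496-131525922, plus strand), spermine oxidase, had 40.9, 33.9 and 35.0 CPM in CK, 28.7, 31.6 and 30.6 CPM in DCM and, in SPM, 27.7, 25.5 and 26.2 CPM. The 3 groups did not overlap, with CK highest and SPM lowest. Smox fell in SPM compared to CK by 0.47 on the log2 scale (SE 0.08, edgeR adjusted p = 5.06e-03) and still by 0.45 without SPM replicate 2 (SE 0.11, edgeR adjusted p = 0.0359), and passed under 17 of 18 alternatives. The log2 fold change was -0.27 (SE 0.09, edgeR adjusted p = 0.0790) in DCM compared to CK and -0.20 (SE 0.07, edgeR adjusted p = 0.0932) in SPM compared to DCM, neither of which passed. Without SPM replicate 2 the edgeR adjusted p in SPM compared to DCM was 0.353.

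Sat1 (ENSMUSG00000025283, chrX:155213132-155216449, minus strand), the acetyltransferase that is rate-limiting for polyamine breakdown and strongly induced by polyamine excess in many cells, ranged from 36.9 to 46.0 CPM over all 9 libraries. Its group means were 43.0 ± 3.51 CPM in CK, 39.6 ± 3.06 CPM in DCM and 40.7 ± 3.08 CPM in SPM (SD, n = 3), and the groups overlapped. The log2 fold change was 0.04 (SE 0.08, edgeR adjusted p = 0.760) in SPM compared to DCM, -0.12 (SE 0.09, edgeR adjusted p = 0.454) in DCM compared to CK and -0.08 (SE 0.08, edgeR adjusted p = 0.481) in SPM compared to CK.
Paox (ENSMUSG00000025464, chr7:140115799-140137224, plus strand) ranged from 5.17 to 7.82 CPM, with group means of 6.52 ± 1.19 CPM in CK, 5.91 ± 0.222 CPM in DCM and 6.52 ± 1.21 CPM in SPM (SD, n = 3), and the groups overlapped. Its edgeR adjusted p was 0.671, 0.553 and 0.985 in DCM compared to CK, SPM compared to DCM and SPM compared to CK. Paox shares 142 of 4907 exon bases with Echs1 on the other strand, a mitochondrial enzyme with 9907 to 14695 counts a library. The kit that the labels name, in the protocol that also names retinas, does not mark strand, and the study's methods do not state strand, so part of the Paox counts may belong to Echs1, and its copy Gm19680 (99.9% identical over 1358 bases) held a further 12.2% of the Paox counts.

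The regulators of ornithine decarboxylase moved apart in SPM compared to CK, where Azin1 rose and Oaz2 fell. Azin1 (ENSMUSG00000037458, chr15:38487427-38519266, minus strand), the inhibitor of the antizymes, had 44.3, 52.6 and 53.2 CPM in CK, 61.7, 56.0 and 67.4 CPM in DCM and, in SPM, 65.5, 77.0 and 82.1 CPM. CK was below both other groups in every library, and DCM and SPM overlapped. Azin1 rose in SPM compared to CK by a log2 fold change of 0.58 (SE 0.10, 1.49-fold, edgeR adjusted p = 5.64e-03) and by 0.56 without SPM replicate 2 (SE 0.13, edgeR adjusted p = 0.0285). The log2 fold change was 0.30 (SE 0.09, edgeR adjusted p = 0.0591) in DCM compared to CK and 0.28 (SE 0.10, edgeR adjusted p = 0.0716) in SPM compared to DCM. DESeq2 put both below the threshold, with adjusted p = 0.0248 and 0.0477, and Azin1 passed in 3 of 18 alternatives in each of these comparisons. Without SPM replicate 2 the edgeR adjusted p of Azin1 in SPM compared to DCM was 0.22.

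Oaz2 (ENSMUSG00000040652, chr9:65668001-65690300, plus strand) had 194, 189 and 192 CPM in CK, 185, 177 and 177 CPM in DCM and, in SPM, 161, 166 and 171 CPM. The 3 groups did not overlap, in the order CK, DCM and SPM. Oaz2 fell in SPM compared to CK by 0.21 on the log2 scale (SE 0.05, 0.863 times the CK level, edgeR adjusted p = 0.0183), and without SPM replicate 2 the edgeR adjusted p was 0.113. Oaz1 (ENSMUSG00000035242, chr10:80826656-80829290, plus strand), the antizyme with the higher RNA level, had 548 to 591 CPM in CK, 569.8 to 638 CPM in DCM and, in SPM, 515 to 598 CPM, and the groups overlapped. Its log2 fold changes were 0.11 (SE 0.08), -0.14 (SE 0.08) and -0.03 (SE 0.07) in DCM compared to CK, SPM compared to DCM and SPM compared to CK, with edgeR adjusted p = 0.425, 0.254 and 0.726. These are RNA levels, and the frameshift at the site printed above is not measured by them.

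Ratios between members within a library do not depend on the scaling of the library, and are given as a description without a test, on the log2 scale of FPKM. The ratio of Srm to Sms, the enzymes of the last 2 steps, was 0.31 ± 0.07 in CK, 0.07 ± 0.21 in DCM and -0.63 ± 0.17 in SPM (SD, n = 3). Srm exceeded Sms in every CK library, by 1.18 to 1.29 times, and was below it in every SPM library, at 0.583 to 0.733 times. Counts of the copy Sms-ps, in sum 32.04% of those of Sms, are not part of Sms here. With them Sms would be higher, so the excess of Srm in CK depends on where those reads are placed. The DCM libraries, at 0.946 to 1.25 times, overlapped with CK and were separate from SPM. Srm and Sms differ in GC content (59.8% and 43.5%), and with the GC offset the difference of SPM from CK was -0.57 in place of -0.93, and that of SPM from DCM was -0.28 in place of -0.70.
The ratio of Odc1 to Azin1 was 2.15 ± 0.13 in CK, 2.25 ± 0.21 in DCM and 1.74 ± 0.12 in SPM, with SPM separate from both. These genes also differ in GC content (52.4% and 39.3%). The offset moved the difference of SPM from CK from -0.41 to 0.0017 and that of SPM from DCM from -0.51 to -0.10, so this shift was not seen in that fit. The ratio of Oaz1 to Odc1 was 2.30 ± 0.08 in CK, 2.004 ± 0.01 in DCM and 2.10 ± 0.16 in SPM, with CK separate from DCM only. The ratio of Sat1 to Odc1 was -0.51 ± 0.14 in CK, -1.04 ± 0.10 in DCM and -0.76 ± 0.16 in SPM, with DCM separate from both. With the GC offset the difference of DCM from CK was -0.52, beside -0.53 without it, that of SPM from DCM was 0.01 in place of 0.28 and that of SPM from CK was -0.50 in place of -0.25.
The ratio of the antizymes, Oaz1 to Oaz2, was 1.11 ± 0.05 in CK, 1.31 ± 0.06 in DCM and 1.28 ± 0.15 in SPM, separate between CK and DCM. The ratios of Smox to Paox and of Sat1 to Paox overlapped between all groups, with means of 3.05 to 3.52 and of 4.44 to 4.52.

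**Figure D4:**
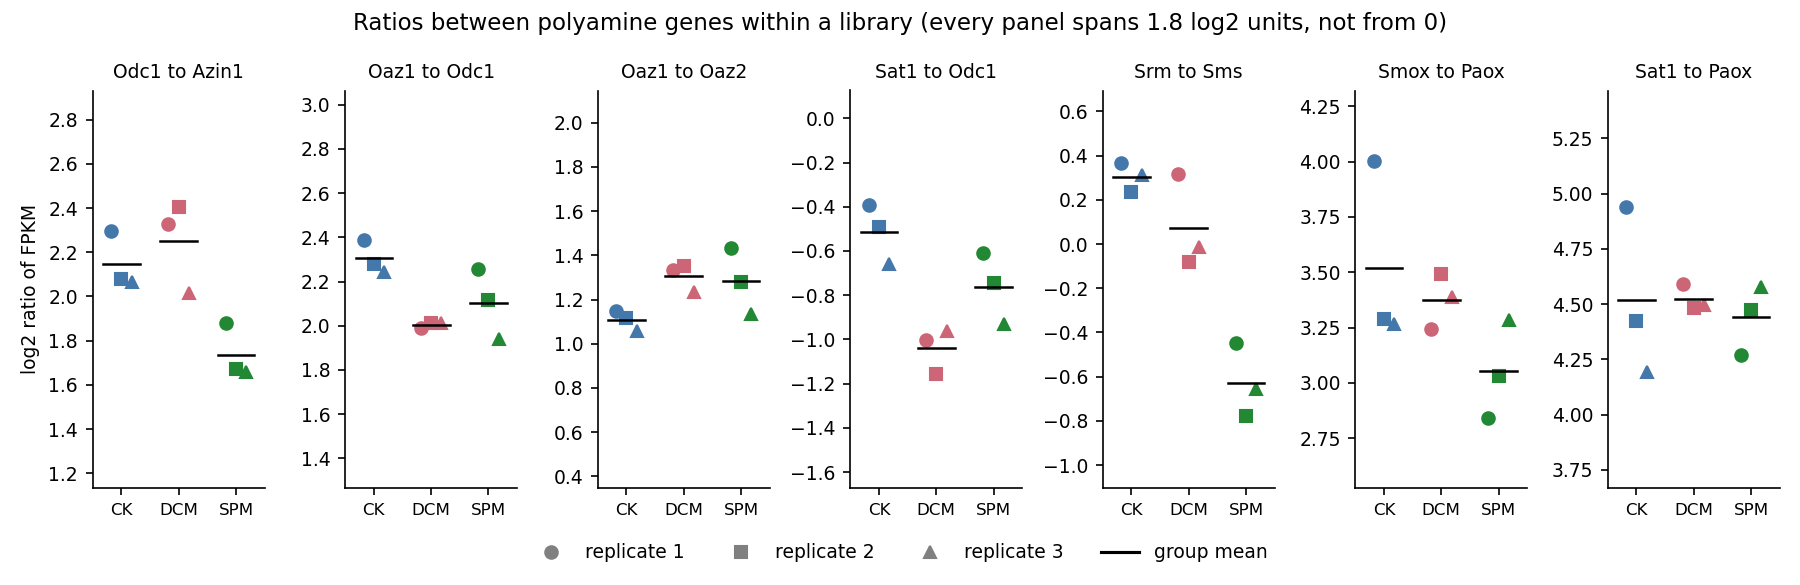
Log2 ratio of FPKM for 7 pairs of polyamine genes, with 1 point per library, the shape giving the replicate number, and a line at the group mean, every panel spanning the same number of log2 units. The ratio of Srm to Sms, with counts of the copy Sms-ps left out, lies above 0 in every CK library (0.24 to 0.37) and below 0 in every SPM library (-0.78 to -0.45).

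The members that were higher in SPM than in CK were those of low GC content, Azin1 with 39.3%, Amd1 with 41.4% and Sms with 43.5%, and those that were lower had more, Oaz2 with 53.2%, Smox with 54.5% and Srm with 59.8%. The other members did not follow this order. Sat1 (43.8%) lay near the first group and had a log2 fold change of -0.08, Oaz1 (55.7%) lay above Smox and had -0.03, Paox (50.2%) had -0.01, and Odc1 (52.4%) had 0.16, with every SPM library above every CK library. With an offset that removes each library's trend on GC content, Smox (log2 fold change -0.36, edgeR adjusted p = 8.70e-03) and Srm (-0.48, edgeR adjusted p = 7.69e-03) still passed in SPM compared to CK. Azin1 then had 0.25 (edgeR adjusted p = 0.0610), Amd1 0.14 (edgeR adjusted p = 0.256), Sms 0.09 (edgeR adjusted p = 0.368) and Oaz2 -0.11 (edgeR adjusted p = 0.163), and none of these passed.
In SPM compared to DCM the offset left 0 of 10 members past the threshold (444 of 14484 genes). Odc1 and Srm were lower at an unadjusted p below 0.05, beside 3460 of the 14484 genes in either direction. Srm was at -0.39 (edgeR adjusted p = 0.0577) and Odc1 at -0.18 (edgeR adjusted p = 0.138). In DCM compared to CK, where fold changes hardly moved with GC content, Odc1 (0.44, edgeR adjusted p = 1.18e-03), Azin1 (0.34, edgeR adjusted p = 6.48e-03) and Amd1 (0.32, edgeR adjusted p = 0.0406) passed. Whether the GC trend is technical was not tested.

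**Figure D5:**
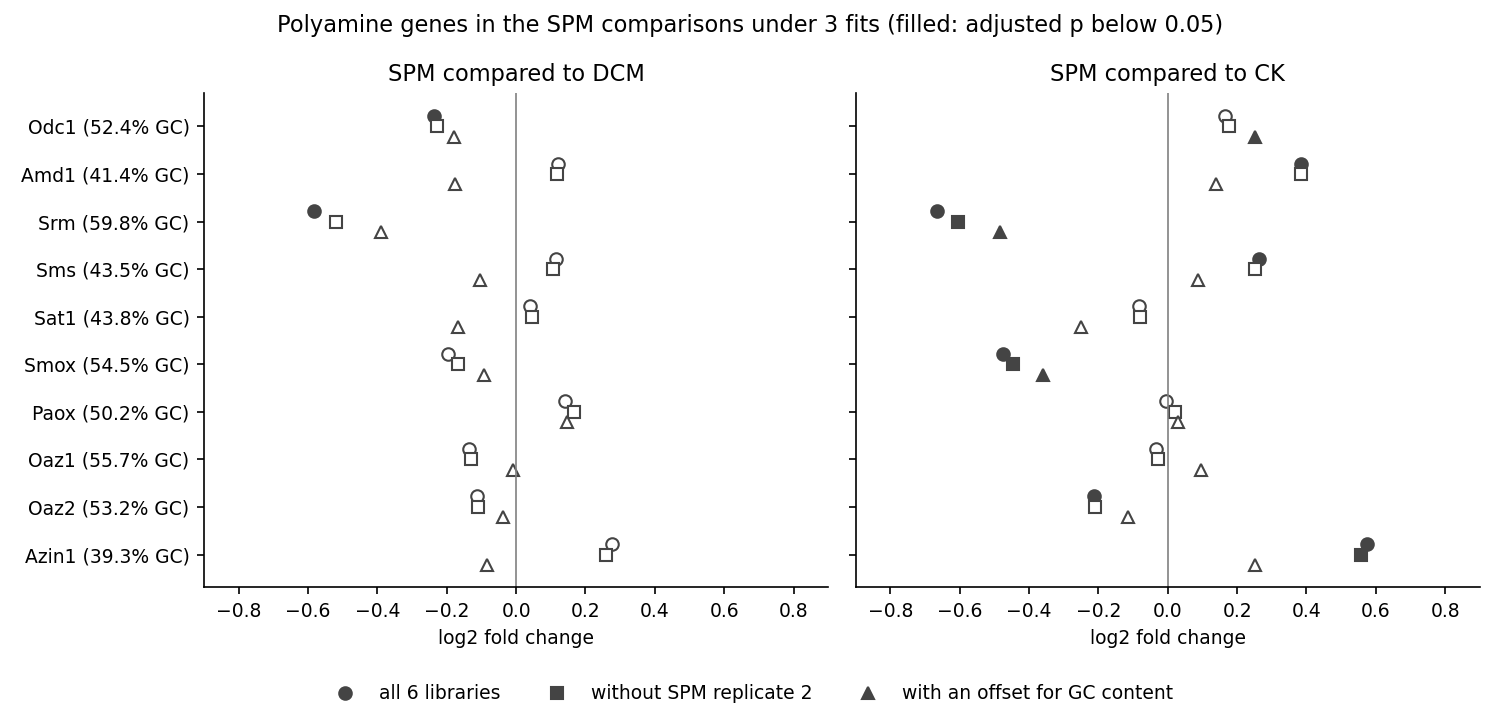
Log2 fold change of each polyamine gene, labelled with its GC content, in the SPM comparisons with all 6 libraries (circles), without SPM replicate 2 (squares) and with an offset for GC content (triangles), filled where the edgeR adjusted p was below 0.05. Srm and Smox are filled under all 3 fits in SPM compared to CK, and in SPM compared to DCM the filled points are Srm and Odc1 with all 6 libraries.

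These are whole-heart libraries, in which fewer cells of a type and less RNA per cell cannot be told apart, and marker levels of several cell types differed between the groups. All 7 fibroblast genes in the matrix, of 8 listed, reached 1 CPM in every library, and their sum was 2127 to 2182 CPM in CK, 1316 to 1460 in DCM and, in SPM, 1571 to 1649. The 6 cardiomyocyte genes summed to 49740 to 54140 CPM in CK, 45220 to 50420 in DCM and, in SPM, 37930 to 43510. Such sums weigh abundant genes most, and genes of a list varied by unlike amounts. Over all 9 libraries Myh6 had 13560 to 26630 CPM and Tnnt2 5104 to 5938. Among the fibroblast genes Col3a1 had 107 to 531 CPM and Pdgfra 78.9 to 97.4. All 8 macrophage genes reached 1 CPM in every library, and their sum was 753 to 1010 CPM in CK, 595 to 723 in DCM and, in SPM, 711 to 1198.
The 7 neutrophil genes, of which 2 reached 1 CPM in every library, summed to 5.75 to 12.2 CPM in CK, 12.2 to 28.2 in DCM and, in SPM, 29.96 to 59.6. All 7 endothelial genes reached 1 CPM in every library and summed to 2063 to 2379 CPM in CK, 1876 to 2011 in DCM and, in SPM, 1774 to 1902. No gene of these lists was at 0 in all 9 libraries. The 4 erythroid genes in the matrix, of 5 listed, summed to 1589 to 3798 CPM in CK, 1285 to 3289 in DCM and, in SPM, 737 to 1264. The 4 atrial genes, all at 1 CPM or more in every library, summed to 1040 to 1465 CPM in CK, 569 to 1037 in DCM and, in SPM, 998 to 1660. The 6 T and B cell genes, of which 0 reached 1 CPM in every library, summed to 7.05 to 16.4 CPM in CK, 3.01 to 8.49 in DCM and, in SPM, 5.14 to 6.45. Smox, Oaz2 and Srm had group means from high to low in the order CK, DCM, SPM, with Srm overlapping between CK and DCM. The median sums of the cardiomyocyte, endothelial and erythroid lists had the same order. Azin1, Amd1 and Sms had group means in the opposite order, as had the median sum of the neutrophil list. The list sums are scaled by library totals alone, mitochondrial counts included, and the member means also by TMM factors. Mitochondrial counts took the largest share of those totals in SPM. The part of cell composition in the member results was not tested.

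For each member that passed in at least 1 comparison, the genes with the most similar profile over the 9 libraries were taken by Pearson's r of log2 CPM among 9985 genes with a mean of at least 5 CPM. The libraries fall into the 3 groups, so r here reflects the group means as well as the spread within groups. Odc1 was most like Mt1, which encodes the metal-binding protein metallothionein (r = 0.977), followed by Gstm4, a glutathione transferase (0.968), and Tesc (0.965). Srm was most like Abhd5, the activator of the triglyceride lipase ATGL (r = 0.988), followed by Poldip2 (0.975) and Wdr34 (0.972). Azin1 was most like Msantd4 (r = 0.989), 1810013L24Rik (0.980) and Phc3 (0.978).
Smox was most like Ciao1, of cytosolic iron-sulfur assembly (r = 0.984), and then Smarcb1 (0.980) and Smarca4 (0.971), both subunits of the SWI/SNF chromatin remodeller. Oaz2 was most like Lrrc3b (r = 0.990), Dynll1 (0.986) and Irak1 (0.985). Amd1 was most like Idh3a, a subunit of isocitrate dehydrogenase (r = 0.978), and then Gata6 (0.976) and Slc19a2 (0.973), and Sms was most like Dicer1 (0.955), Ndnf (0.952) and Meis1 (0.947).

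Around the 10 members, 36 further genes of the pathway were listed, of which 35 were in the matrix. In DCM compared to CK, 2 of the 27 tested rose (5.28% of all genes) and 2 fell (5.11% of all genes). With the GC offset 8 passed, beside 1878 of the 14392 genes in that fit. In SPM compared to DCM, 2 of 29 rose (8.87% of all genes) and 2 fell (7.76% of all genes), and 0 of these calls were kept without SPM replicate 2 or with the GC offset. In SPM compared to CK, 7 of 31 rose (13.0% of all genes) and 3 fell (14.3% of all genes). Without SPM replicate 2, 4 of these 10 calls were kept (Slc7a2, Slc3a2, Atp13a3 and Mycn), and with the GC offset 6 were kept (the same 4 genes, Max and Myc). Paralogs of the members passed in no comparison by edgeR without the offset, with 3 of 5 tested and 0 called. DESeq2 also called 0. Over all genes, 3545, 5015 and 5966 had an unadjusted p below 0.05 by edgeR in the 3 comparisons. At that level Sat2 was higher in DCM compared to CK, Amd2 in SPM compared to DCM and both in SPM compared to CK. Among them Sat2, related to Sat1, had 3.01 to 3.67 CPM in CK, 4.34 to 5.38 in DCM and, in SPM, 4.04 to 5.85, with CK below both, and edgeR adjusted p = 0.0682 in DCM compared to CK and 0.0520 in SPM compared to CK. With the GC offset Sat2 passed in DCM compared to CK (log2 fold change 0.61, edgeR adjusted p = 0.0425). Amd2 is 99.6% identical to Amd1 over 3202 bases and had 9 to 48 counts a library, so part of its counts may belong to Amd1.

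Among transporters, Slc3a2, the heavy chain of amino acid exchangers and a component of polyamine export, had 56.2 to 59.9 CPM in CK, 77.1 to 83.6 in DCM and, in SPM, 71.3 to 91.5. All CK libraries were below all others. Slc3a2 rose in DCM compared to CK by a log2 fold change of 0.47 (SE 0.07, edgeR adjusted p = 1.17e-03) and in SPM compared to CK by 0.48 (SE 0.09, edgeR adjusted p = 6.44e-03, and 0.0315 without SPM replicate 2).
Atp13a3, a P-type ATPase of polyamine uptake, had 23.0 to 31.5 CPM in CK, 29.3 to 33.2 in DCM and, in SPM, 38.8 to 44.0. Atp13a3 rose in SPM compared to DCM by 0.40 (SE 0.08, edgeR adjusted p = 0.0147, and 0.0787 without SPM replicate 2) and in SPM compared to CK by 0.55 (SE 0.12, edgeR adjusted p = 0.0122, and 0.0497 without it). With the GC offset its log2 fold change was 0.05 in SPM compared to DCM (edgeR adjusted p = 0.736) and 0.24 in SPM compared to CK (edgeR adjusted p = 0.0483). Atp13a2, the lysosomal polyamine exporter, fell in SPM compared to CK by 0.27 (SE 0.08, edgeR adjusted p = 0.0389, and 0.111 without SPM replicate 2). With the GC offset the value there was -0.06 (edgeR adjusted p = 0.622), and in DCM compared to CK Atp13a2 then passed at -0.30 (edgeR adjusted p = 0.0194), beside -0.27 (edgeR adjusted p = 0.0913). In all, polyamine transport had 1 rise in SPM compared to DCM, and 2 rises and 1 fall in SPM compared to CK.

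Of the genes that supply ornithine, Slc7a2, a cationic amino acid transporter, had a log2 fold change of 0.49 in SPM compared to DCM (SE 0.15, edgeR adjusted p = 0.0461, and 0.168 without SPM replicate 2) and rose in SPM compared to CK by 0.74 (SE 0.14, edgeR adjusted p = 6.66e-03, and 0.0409 without it). With the GC offset the first value was 0.29 and did not pass (edgeR adjusted p = 0.234). Its levels were 4.56 to 5.64 CPM in CK, 5.25 to 7.26 in DCM and, in SPM, 7.72 to 9.45. It was 1 of 5 and 1 of 6 genes tested in these comparisons, and in DCM compared to CK 0 of 3 were called by edgeR, 0 by DESeq2 and 1, the lower Slc25a15, at an unadjusted p below 0.05.
Of the genes of S-adenosylmethionine and of methylthioadenosine, the by-product that Srm and Sms release, Mri1 of the salvage pathway fell in SPM compared to DCM by 0.34 (SE 0.10, edgeR adjusted p = 0.0399) and in SPM compared to CK by 0.25 (SE 0.08, edgeR adjusted p = 0.0465). Mat2b, a regulatory subunit of S-adenosylmethionine synthesis, rose in SPM compared to CK by 0.25 (SE 0.05, edgeR adjusted p = 0.01003). Without SPM replicate 2 these 3 edgeR adjusted p-values were 0.177, 0.215 and 0.0723, and with the GC offset they were 0.0883, 0.129 and 0.0986, with Mat2b at 0.14. For DCM compared to CK, edgeR called 0 of 8 genes of this list, 3 (Ahcy, Mat2a and Mat2b, all higher) had an unadjusted p below 0.05, and DESeq2 called 3 of 9 (Ahcy and Mat2b higher, Mat1a lower). EdgeR with the GC offset called 2, Ahcy (edgeR adjusted p = 0.0276) and Mat2b (0.0237).

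Spermidine is also the source of hypusine, a residue made by Dhps and Dohh on the translation factor eIF5A. Dhps fell in SPM compared to DCM by 0.33 on the log2 scale (SE 0.09, edgeR adjusted p = 0.0414) and Eif5a2 rose in SPM compared to CK by 0.73 (SE 0.18, edgeR adjusted p = 0.0165), each 1 of 3 tested. Both calls were lost without SPM replicate 2, with edgeR adjusted p = 0.176 and 0.0830, and with the GC offset, where Dhps had -0.20 (edgeR adjusted p = 0.192) and Eif5a2 0.39 (edgeR adjusted p = 0.162). Eif5a itself, at 307 to 359 CPM over all 9 libraries, did not pass in any comparison. Dohh, with 0 to 3 counts a library, was left out of edgeR's test by the low-count filter.

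Of the MYC factors, Mycn had 7.11, 3.40 and 4.51 CPM in CK, 1.99, 2.30 and 1.14 CPM in DCM and, in SPM, 1.91, 1.99 and 1.53 CPM. All CK libraries were above all others, and Mycn fell in DCM compared to CK by 1.47 on the log2 scale (SE 0.32, edgeR adjusted p = 0.0111) and in SPM compared to CK by 1.47 (SE 0.29, edgeR adjusted p = 7.58e-03, and 0.0300 without SPM replicate 2). Max, the partner of MYC on the E-box, rose in DCM compared to CK by 0.26 (SE 0.07, edgeR adjusted p = 0.0458) and in SPM compared to CK by 0.39 (SE 0.09, edgeR adjusted p = 0.0150, and 0.0577 without SPM replicate 2). Myc rose in SPM compared to CK by 0.44 (SE 0.14, edgeR adjusted p = 0.0468, and 0.151 without SPM replicate 2), with 6.68 to 9.54 CPM in CK and 11.2 to 11.8 CPM in SPM. Between SPM and DCM, 0 of 3 MYC factors passed by edgeR, by DESeq2 or at an unadjusted p below 0.05.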

How the data were processed

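RNA-seq was analysed in 9 heart libraries, 3 each of CK, DCM and SPM, grouped by their labels. The authors filtered reads with fastp 0.18.0 and deposited whole-number counts per gene and FPKM values per library. The submitters' processing notes name Bowtie 0.12.2 and the builds mm8 and mm9 without a role, and the annotation and counting tool are, in the sources used here, not given. Each deposited FPKM value equals its count over the library total, mitochondrial counts included, and over a length that is fixed for the gene, to within a relative deviation of 8.58e-13. Symbols and GRCm38 coordinates came from GENCODE M21 by Ensembl identifier (22820 of 22851 matched), so coordinates belong to that annotation and not to the authors' alignment.

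Groups were compared 2 at a time, each with its own 6 libraries, by edgeR 4.0.16 (quasi-likelihood test, filterByExpr, TMM) in R 4.3.3, over all genes, with Benjamini-Hochberg adjustment and a threshold of 0.05. TMM factors lay between 0.955 and 1.04. The SE is the log2 fold change divided by the square root of F. CPM of members and pathway genes in single libraries use TMM factors over all 9, and marker sums use library totals alone. The replicate numbers do not pair the libraries: residuals correlated between -0.07 and 0.20 for equal numbers and between -0.28 and 0.22 for others.

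Alternatives were the 1.5-fold limit of the study's methods, DESeq2 1.42.0, RLE size factors, no mitochondrial genes, 2 other low-count filters, 1 fit of all 9 libraries, a replicate block, limma 3.58.1 on log2 of FPKM plus 0.1 or 1, a GC offset (lowess span 0.3), and each library left out. Summing near-identical copies (at least 95% over 500 bases, blastn 2.17.0) and the GC offset for ratios were chosen after seeing the data. The steps were tested on simulated data. Figures used matplotlib 3.10.9.

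The members and lists were chosen with earlier results of these data known. The rule names all 10 members, listed pathway genes past the threshold in at least 1 comparison (1 of them is counted in the totals and not reported here), and the 3 genes most like each called member. Sat2, Amd2, Eif5a, Dohh, the single marker genes and the genes of the closing section were named after their values were seen.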

Additional observations from a re-analysis of the deposited data

How the results depend on the processing

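Of 540 log2 fold changes of members under alternatives, 475 kept their direction and their side of the threshold, 34 fell short of it, 15 newly passed it and 16 changed sign. The 1.5-fold limit left 0, 0 and 1 members (DCM compared to CK, SPM compared to DCM, SPM compared to CK) and 625, 521 and 1342 genes, beside 1, 2 and 6 members and 1497, 2410 and 3989 genes. The GC offset left 3, 0 and 3 members. It left 1878 genes in DCM compared to CK and 444 genes (179 higher, 265 lower, beside 1286 and 1124) in SPM compared to DCM. In SPM compared to CK it left 1490 higher and 1603 lower genes. In DCM compared to CK, DESeq2 called 2 members (1744 genes), limma on FPKM with either pseudocount 2 (1635 genes) and no low-count filter 4 (2085 genes). Limma called 1 member in SPM compared to DCM. Limma on FPKM with 0.1 called 479 higher and 1156 lower genes in DCM compared to CK (beside 761 and 736), 744 and 1016 in SPM compared to DCM, and 1212 and 3244 in SPM compared to CK (beside 1900 and 2089), with medians over all genes of -0.09, -0.00 and -0.08. Leaving out 1 library gave 1 to 2, 0 to 2 and 3 to 6 members and 817 to 1326, 72 to 2433 and 1544 to 3768 genes. The lowest gene counts came without CK replicate 2, SPM replicate 2 and SPM replicate 2, and SPM compared to DCM had 194 genes without DCM replicate 2 and 751 without DCM replicate 1. In DCM compared to CK, 866 and 966 genes passed without DCM replicates 2 and 3. With the replicate block 2, 3 and 6 members passed (Amd1 added in DCM compared to CK, Azin1 in SPM compared to DCM) and 1302, 2810 and 3826 genes. The libraries share only a number. The cause of these shifts was not tested.

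Sign changes occurred only in the SPM comparisons. With the GC offset, the log2 fold change in SPM compared to DCM was -0.18 for Amd1, -0.11 for Sms, -0.17 for Sat1 and -0.0828 for Azin1, and in SPM compared to CK it was 0.10 for Oaz1 and 0.0294 for Paox. Paox there was also at 0.0002 with at least 1 CPM in 3 libraries and at 0.0003 with all 9 libraries in 1 fit, beside -0.01. When 1 library was left out, the range in SPM compared to DCM was -0.0212 to 0.0964 for Sat1 and -0.0172 to 0.2495 for Paox, and in SPM compared to CK it was -0.1562 to 0.1074 for Paox and -0.0896 to 0.0145 for Oaz1. None of these values was past the threshold. The Odc1 call of SPM compared to DCM, at an edgeR adjusted p of 0.0445, ranged from 0.0140 to 0.197 over the alternatives and was lost without DCM replicate 1, DCM replicate 2, SPM replicate 1 or SPM replicate 2. Amd1 in SPM compared to CK was lost without CK replicates 1 or 2 or SPM replicates 2 or 3, and Sms without CK replicates 1 or 3 or SPM replicates 2 or 3. These 3 calls were also lost with the GC offset, with limma on FPKM and with the 1.5-fold limit. Each member had at least 162 counts in every library. Of 21 differences in ratios, 7 moved by more than 1 SD with the GC offset, an alternative chosen after seeing the data.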

Other observations

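Liver-type genes of the pathway were uneven among the SPM libraries. Arg1, the liver arginase that makes ornithine, had 150, 64 and 5 counts in SPM replicates 1 to 3, with 1 to 16 in the CK and 4 to 6 in the DCM libraries. Mat1a, the liver form of S-adenosylmethionine synthetase, had 306, 124 and 2 counts in SPM replicates 1 to 3, with 1 to 85 in CK and 1 to 5 in DCM. The 6 genes of a liver marker list summed to 1.05 to 302 CPM in SPM, with 1.84 to 38.8 in CK and 0.982 to 1.46 in DCM. In SPM compared to CK neither gene passed, with edgeR adjusted p = 0.0509 for Arg1 and 0.211 for Mat1a. DESeq2 called both higher in SPM compared to DCM and Mat1a lower in DCM compared to CK. The low-count filter left both genes out of edgeR's test in those comparisons.

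Mat2a, the form of that enzyme used outside the liver, had 2.61 to 9.73 CPM in the DCM libraries, with the highest in replicate 3, and 2.65 to 3.58 CPM in the other 6 libraries.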
